A study of Sus scrofa domesticus with 11 samples.

Results

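The flavin-containing monooxygenases (FMO genes) were followed in liver RNA of Yorkshire piglets from a study of preterm animals kept on parenteral nutrition (intravenous feeding). Members were found as rows of the deposited gene table named FMO plus a number, and those described are FMO1, FMO2, FMO4 and FMO5, 4 of 22029 genes. The family was chosen by measured values of this same table, the FMO1 fold change and adjusted p between the 2 groups, so the levels and differences of its members are given as a description. There were 5 SEFA-6179 libraries, from animals given that compound at 48 mg/kg, and 6 MCT libraries, from animals given the isovolumetric vehicle control at 3 ml/kg, all collected on day of life 15. SEFA-6179 is a code name, and the abbreviation MCT is commonly used for medium-chain triglycerides. All animals of both groups shared the breed and the parenteral feeding. No label used here names a litter, a sex or a batch, and p-values measure only the spread between these libraries.

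FMO enzymes sit in the membrane of the endoplasmic reticulum. They hold FAD, take electrons from NADPH and add an oxygen atom to the nitrogen or sulfur of small molecules, which makes them a drug-oxidizing system beside the cytochromes P450. FMO1 is the main form of human fetal liver, and pig liver is the classical source from which FMO1 protein was purified. FMO5 works mainly as a Baeyer-Villiger monooxygenase on ketones, FMO2 is best known from lung, and FMO4 is little studied.

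A SEFA-6179 library held between 16821201 and 19215097 counts, and an MCT library between 15974977 and 23416071. Levels within a gene are given as CPM, counts scaled to library size after trimmed mean of M values (TMM) scaling. Levels between genes are given as the deposited FPKM, which divides by gene length. The labelled tissue was checked against 14 hepatocyte markers, of which the 12 found summed to between 110786 and 216486 CPM in SEFA-6179 libraries and between 87482 and 196629 CPM in MCT libraries. ALB alone averaged 97838 CPM in SEFA-6179 libraries and 82229 CPM in MCT libraries, so these sums lean on 1 gene. Fewer cells of a type and less RNA per cell cannot be told apart in such bulk samples.

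FMO1 and FMO4 were higher in every SEFA-6179 liver than in any MCT liver. FMO5 varied widely within both groups, and FMO2 was barely counted. Differences were tested across all genes by the quasi-likelihood method of edgeR, with p-values adjusted after Benjamini and Hochberg and a threshold of 0.05. This tested 3 of the 4 members, FMO2 having too few counts, and placed FMO1 and FMO4 past the threshold, where 0.219% of the 13671 tested genes passed in either direction. Groups did not overlap, with every SEFA-6179 library above every MCT library, for 0.673% of the tested genes. Since this contrast chose the family, nothing further is read from these shares.

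**Figure D1:**
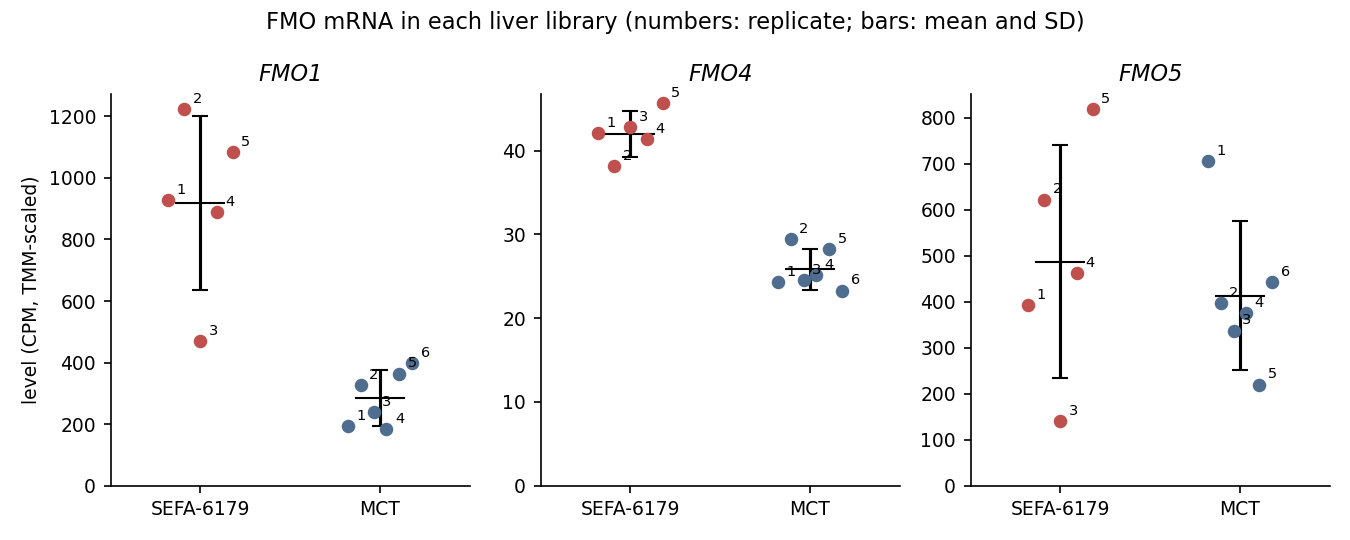
Levels of FMO1, FMO4 and FMO5 (CPM, linear axes from 0) in 5 SEFA-6179 and 6 MCT libraries, with points numbered by replicate and bars for the mean and SD. All SEFA-6179 points lie above all MCT points for FMO1 and FMO4, while the groups overlap for FMO5.

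FMO1 (ENSSSCG00000015268) runs on the plus strand of chromosome 9 from 63812103 to 63895077 in the coordinates of the deposited table, whose genome build no source used here gives. SEFA-6179 replicates 1 to 5 had 929, 1222, 469, 889 and 1085 CPM of FMO1, and MCT replicates 1 to 6 had 193, 327, 240, 183, 364 and 398 CPM. The lowest SEFA-6179 library, replicate 3, thus stood above the highest MCT library, replicate 6. The mean of FMO1 was 919 ± 284 CPM over the 5 SEFA-6179 livers and 284 ± 91.3 CPM over the 6 MCT livers (± SD), which differ 3.23-fold. The fitted log2 fold change was 1.69 ± 0.27 (SE), with an edgeR adjusted p of 0.0273. Among the 16 genes that passed as higher in SEFA-6179, FMO1 had the 5th largest log2 fold change. By FPKM it had a median rank of 121 among the 22029 genes of a SEFA-6179 library and of 338 in an MCT library.

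FMO4 (ENSSSCG00000015266), on the same strand of chromosome 9 from 63908867 to 63934983, differed less but was steadier. SEFA-6179 replicates 1 to 5 had 42.1, 38.1, 42.8, 41.4 and 45.7 CPM of FMO4, and MCT replicates 1 to 6 had 24.3, 29.4, 24.6, 25.2, 28.2 and 23.3 CPM. The lowest SEFA-6179 library exceeded the highest MCT library, which was replicate 2. Over the 5 SEFA-6179 livers the mean was 42.0 ± 2.73 CPM, and over the 6 MCT livers 25.8 ± 2.43 CPM (± SD), which differ 1.63-fold. The log2 fold change was 0.70 ± 0.11 (SE), the smallest of the 16 rises, with the same edgeR adjusted p of 0.0273. The SD of FMO4 was under 10% of its mean in both groups, whereas that of FMO1 was 30.9% of the mean with SEFA-6179 and 32.1% with MCT.

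FMO5 (ENSSSCG00000006702) lies apart from these, on chromosome 4 from 100336980 to 100374370. SEFA-6179 replicates 1 to 5 had 393, 623, 140, 462 and 819 CPM of FMO5, and MCT replicates 1 to 6 had 706, 398, 338, 375, 220 and 442 CPM. Both the lowest and the highest value of the 11 libraries came from SEFA-6179 livers, so the MCT values lay inside the SEFA-6179 range. Mean FMO5 was 487 ± 254 CPM in the SEFA-6179 livers and 413 ± 162 CPM in the MCT livers (± SD, n of 5 and 6), with a log2 fold change of 0.24 ± 0.38 (SE; edgeR adjusted p = 0.868). Of the 3 tested, FMO1 and FMO4 thus lay just inside the threshold and FMO5 outside it. The whole gene lies within CHD1L on the opposite strand, a chromatin remodeler gene that averaged 24.7 ± 5.91 CPM in SEFA-6179 livers and 28.1 ± 3.06 CPM in MCT livers. No source used here gives the strand setting of the counting, so reads of the 2 genes cannot be told apart with certainty.

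FMO2 (ENSSSCG00000015267) was counted 1, 7, 0, 2 and 4 times in SEFA-6179 replicates 1 to 5, and 2, 0, 4, 0, 0 and 6 times in MCT replicates 1 to 6. These sums of 14 and 12 counts did not pass the low-count filter, and no fold change is given. In the deposited table FMO2 (63812103 to 63852089) starts at the same base as FMO1 and lies wholly inside its span on the same strand, with 39987 shared bases. In the RefSeq gene list of Sscrofa11.1 the 3 genes stand in the order FMO2, FMO1 and FMO4. No source used here says how reads in a shared stretch were assigned, so the counts of FMO2 and FMO1 are uncertain.

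SEFA-6179 replicate 3 was the lowest SEFA-6179 library for FMO1 and FMO5, though not for FMO4, where replicate 2 was lowest. Its summed hepatocyte markers were the lowest of the SEFA-6179 libraries, at 110786 CPM. MCT replicate 3 had a lower sum of 87482 CPM and an FMO1 level of 240 CPM, against an MCT mean of 284 CPM. SEFA-6179 replicate 3 also had the highest summed macrophage markers of both groups, at 3534 CPM. Without SEFA-6179 replicate 3 the log2 fold change was 1.86 ± 0.24 (SE) for FMO1, 0.69 ± 0.12 for FMO4 and 0.48 ± 0.29 for FMO5. The part of hepatocyte or macrophage content in these differences was not tested.

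Leaving out 1 library often ended the calls of FMO1 and FMO4 and left the size of their differences near that of all 11 libraries. FMO1 passed in 5 of 11 fits that left out 1 library and FMO4 in 6 of 11. FMO1 did not pass without SEFA-6179 replicate 1 or 5 or without MCT replicate 1, 2, 3 or 4, with adjusted p of up to 0.101. FMO4 did not pass without SEFA-6179 replicate 1 or 5 or without MCT replicate 1, 3 or 4, also with adjusted p of up to 0.101. Over those 11 fits the log2 fold change stayed between 1.57 and 1.86 for FMO1 and between 0.67 and 0.74 for FMO4. FMO5 ranged from -0.034 without SEFA-6179 replicate 5 to 0.48 without SEFA-6179 replicate 3. In the authors' deposited table the adjusted p was 5.0e-07 for FMO1, 2.85e-05 for FMO4 and 0.886 for FMO5, where 1.16% of genes lay below 0.05.

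**Figure D2:**
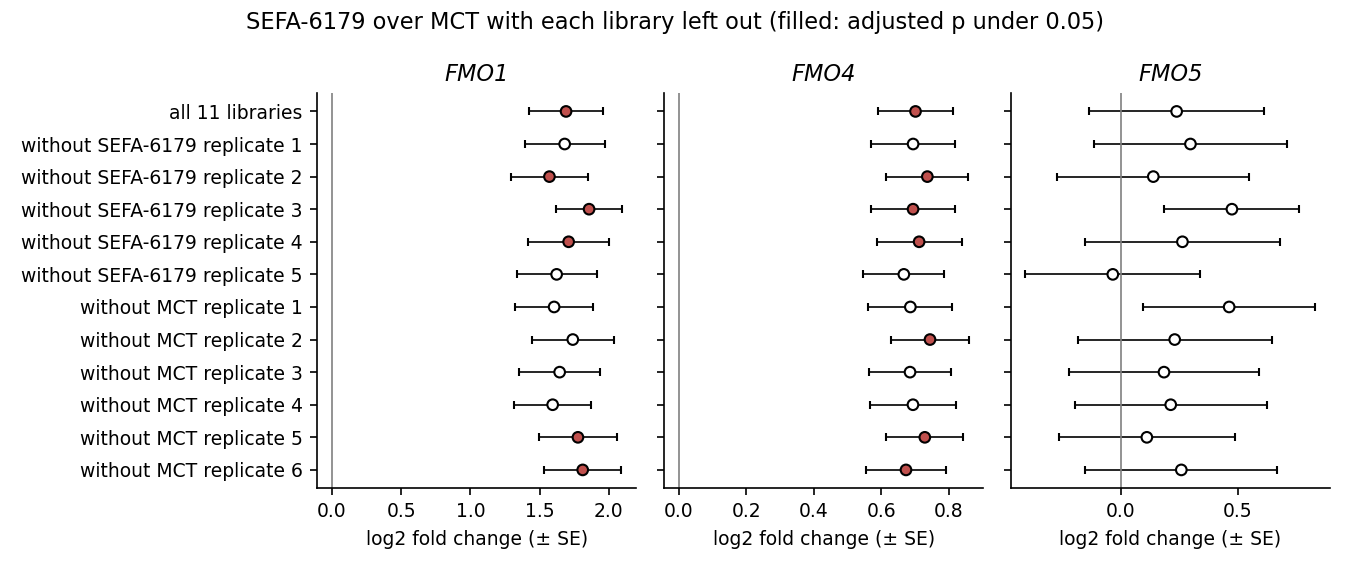
Log2 fold change of SEFA-6179 over MCT for 3 FMO genes (x axes, ± SE, each with its own scale) in the fit of all 11 libraries and with each library left out; filled points have an edgeR adjusted p under 0.05. FMO1 and FMO4 keep their size in every row while the filled points are 5 and 6 of the 11 rows that leave out a library.

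Per length, the order of levels was FMO1, FMO5, FMO4 and FMO2 by the means of both groups. With SEFA-6179 the FPKM of FMO1 was 356 ± 110 (SD, n = 5) and that of FMO5 78.3 ± 40.8, and FMO1 exceeded FMO5 in all 5 libraries, between 3.19-fold and 8.07-fold. With MCT the FPKM of FMO1 was 110 ± 35.4 (SD, n = 6) and that of FMO5 66.6 ± 26.4, ranges that overlap. FMO5 was the higher of the pair in MCT replicate 1, and FMO1 in the other 5 MCT libraries. FMO4 stood below both in every library, at 10.5 to 12.7 FPKM with SEFA-6179 and 6.45 to 8.15 FPKM with MCT. FMO2 was at most 0.0790 FPKM in any SEFA-6179 library and at most 0.0688 FPKM in any MCT library.

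Per length, FMO1 made up the largest share of the mRNA of these 4 genes by the mean of either group. That share of their summed FPKM was 80.5% ± 3.72 (SD, n = 5) with SEFA-6179, from 74.4% to 84.1%, and 59.5% ± 13.2 (SD, n = 6) with MCT, from 38.4% to 76.5%. SEFA-6179 replicate 5 fell below MCT replicate 5, so the shares overlap. The sum was 436, 581, 216, 429 and 565 FPKM in SEFA-6179 replicates 1 to 5, and 197, 198, 153, 139, 186 and 231 FPKM in MCT replicates 1 to 6. Leaving FMO1 out of the sum left 90.0 ± 41.0 FPKM with SEFA-6179 and 73.8 ± 26.1 FPKM with MCT, which overlap. Counts, which favour the long FMO5, gave FMO1 a share of 64.9% ± 6.06 with SEFA-6179 and 40.2% ± 13.2 with MCT. FMO5 had 31.7% ± 7.47 of the counts with SEFA-6179 and 56.1% ± 13.6 with MCT, so on counts the order of the 2 means turned in MCT.

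**Figure D3:**
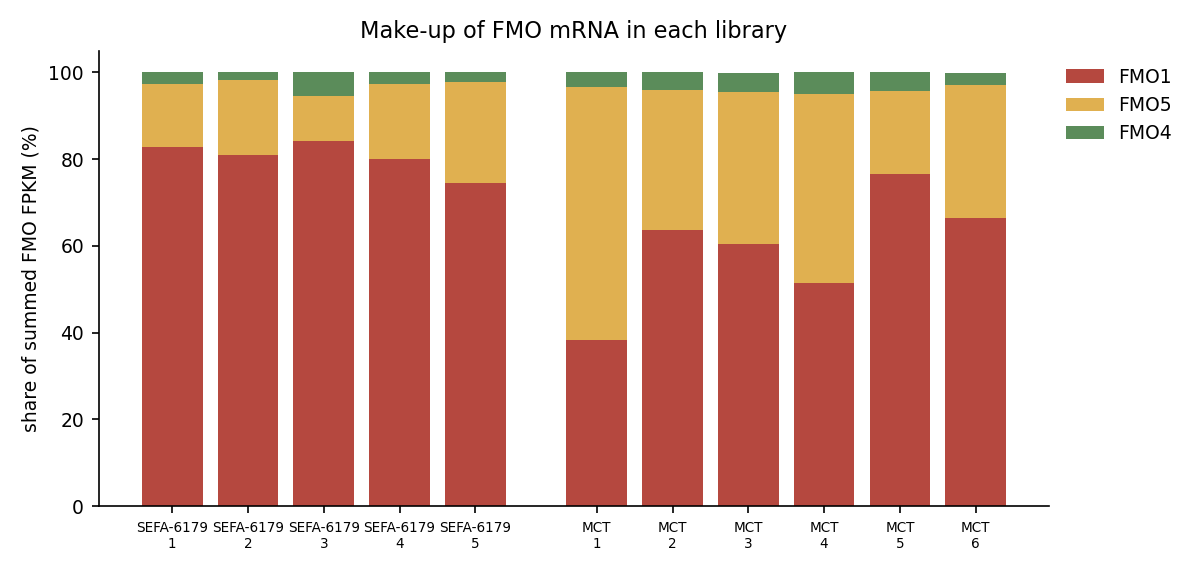
Share of FMO1, FMO5 and FMO4 in the summed FPKM of the 4 FMO genes (%, stacked bars) in every SEFA-6179 and MCT library; FMO2, under 0.03% in each library, is too thin to draw. FMO1 takes 74.4% to 84.1% of the sum with SEFA-6179 and 38.4% to 76.5% with MCT, and FMO5 takes most of the rest.

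Within the MCT group, where the contrast plays no role, no pair of FMO genes was shown to vary together over the 6 libraries. Pearson's r over the 3 pairs of tested members ran from -0.51 for FMO4 and FMO5 to 0.31 for FMO1 and FMO4. The exact two-sided permutation p of FMO4 and FMO5 was 0.344, the smallest of the 3, and 0.485 after Benjamini-Hochberg adjustment, with Spearman's rho of -0.54 (exact p = 0.297). FMO1 and FMO5 had an r of -0.45 (exact p = 0.415) and a rho of -0.086 (exact p = 0.919). FMO1 and FMO4 had an r of 0.31 (exact p = 0.485) and a rho of -0.086 (exact p = 0.919). No pair passed, with adjusted p of at least 0.485 by Pearson's r and 0.892 by Spearman's rho. Without the 2 libraries farthest from the median, r ran from -0.27 to 0.063. Single libraries also moved r: FMO1 and FMO4 had an r of 0.88 without MCT replicate 6 and of 0.13 without MCT replicate 5, FMO4 and FMO5 one of -0.76 without MCT replicate 2 and of -0.25 without MCT replicate 5, and FMO1 and FMO5 one of -0.12 without MCT replicate 1 and of -0.22 without MCT replicate 5. With 6 libraries such a test can only detect very close relations.

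The genes around the block were then examined, since FMO1, FMO2 and FMO4 lie together. These 3 genes span 123 kb of chromosome 9, with 13.8 kb between FMO1 and FMO4. Within 1 Mb on either side the table holds 18 other genes, of which 13 were tested. None passed by edgeR, where 0.219% of all tested genes did, and DESeq2 called none of them either, where it called 2.02%. At these shares 13 genes would rarely hold a call. An unadjusted p under 0.05 was found for 4 of the 13, where 10.8% of all tested genes had one. The groups overlapped in all 13, where 1.49% of all tested genes had groups that did not overlap in either direction. Their median log2 fold change was -0.15, with 4 of 13 above 0, against a median of -0.0015 over all tested genes. All 13 lie on the far side of FMO4.

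The nearest named neighbours, at 168 and 296 kb from the end of FMO1, are FMOD and PRELP, which encode small leucine-rich proteoglycans of the matrix. FMOD was at 8.54 ± 1.79 CPM in SEFA-6179 livers, against 11.2 ± 2.09 CPM in MCT livers (log2 fold change -0.39 ± 0.18 SE, edgeR adjusted p = 0.470). PRELP had a log2 fold change of -0.21, ATP2B4, a calcium pump of the plasma membrane, one of -0.20, and LAX1, a lymphocyte adaptor, one of -0.68. SNRPE, a core protein of splicing particles, was at 34.0 ± 7.66 CPM in SEFA-6179 livers, against 21.0 ± 8.47 CPM in MCT livers (edgeR adjusted p = 0.314). At the far edge, KISS1, the kisspeptin gene, had the lowest p of the window at 22.3 ± 4.53 CPM in SEFA-6179 livers, against 13.7 ± 3.63 CPM in MCT livers (log2 fold change 0.70 ± 0.20 SE, edgeR adjusted p = 0.190). ETNK2, an ethanolamine kinase, had a log2 fold change of 0.44, SOX13, a transcription factor, one of 0.073 and PLEKHA6 one of -0.47. ETNK2 and KISS1 overlap SOX13 on the opposite strand, so their counts may share reads.

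**Figure D4:**
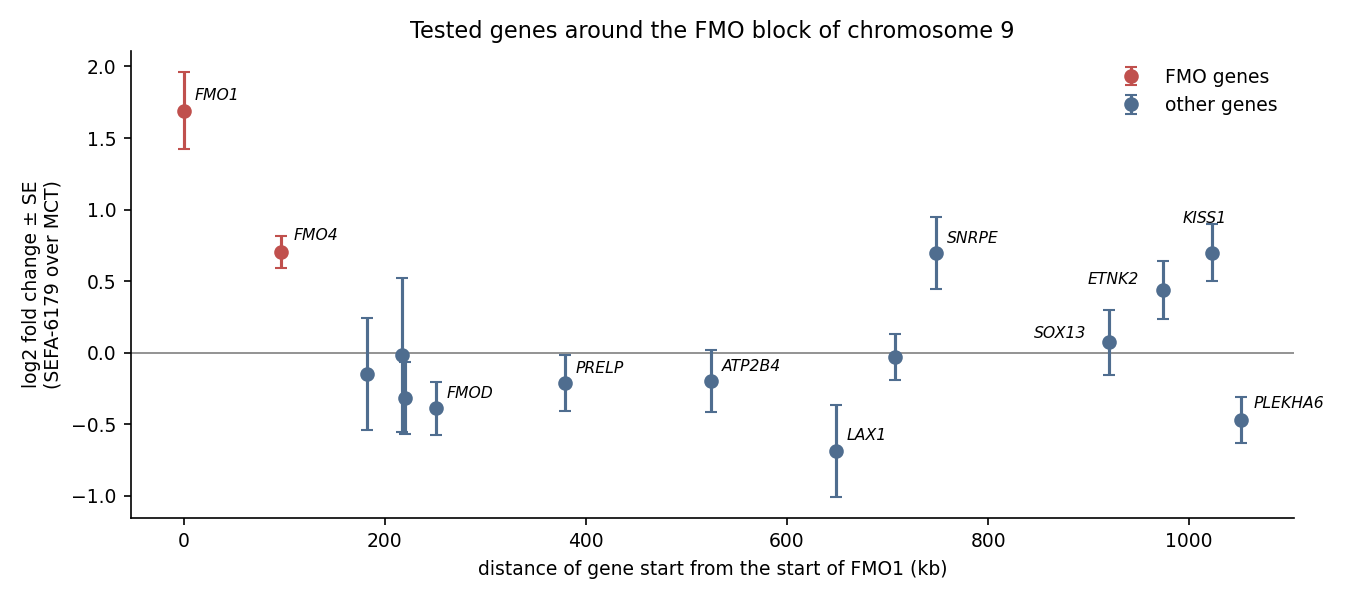
Log2 fold change of SEFA-6179 over MCT (± SE) of FMO1, FMO4 and the 13 other tested genes described in the chromosome 9 window against the distance of its start from the start of FMO1 (kb), with FMO genes in red. FMO4 and FMO1 lie at 0.70 and 1.69, and the 13 other genes lie between -0.68 and 0.70.

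Genes that serve FMO chemistry or do related work were read from the same fit in 9 lists. The lists held 98 distinct tested genes, of which 1 passed, higher in SEFA-6179, and 0 passed as lower, where 0.117% of all tested genes passed as higher and 0.102% as lower. At an unadjusted p under 0.05 were 17 of the 98, against 10.8% of all tested genes. Above 0 were 63 of the 98, with a median log2 fold change of 0.12, against 49.8% and -0.0015 over all tested genes.

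The supply of cofactors showed no called gene. Of 5 tested genes of FAD supply, RFK, the riboflavin kinase, had the smallest p, at 29.7 ± 8.90 CPM in SEFA-6179 livers, against 41.5 ± 7.41 CPM in MCT livers (edgeR adjusted p = 0.378), and the lysosomal phosphatase ACP2 came next with a log2 fold change of 0.20. Of 10 genes of NADPH supply 4 lay above 0, with a median of -0.12; ALDH1L1, of folate metabolism, had a log2 fold change of 0.34 and PGD, of the pentose phosphate pathway, one of -0.22. Of 8 genes of microsomal electron transfer 7 lay above 0, with a median of 0.21. PGRMC1, a heme-binding membrane protein, was at 1066 ± 197 CPM in SEFA-6179 livers, against 816 ± 64.7 CPM in MCT livers (edgeR adjusted p = 0.403), and CYB5R3, a cytochrome b5 reductase, had a log2 fold change of 0.53.

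No gene passed in a list drawn up for other flavin oxidases and monooxygenases. The list was broad, and not every member is such an enzyme. Of its 24 tested genes 16 lay above 0, with a median of 0.071, and their log2 fold changes spanned only -0.34 to 0.39. KDM1A, a histone demethylase, marked the low end with an edgeR adjusted p of 0.411, and KMO, the kynurenine monooxygenase, had a log2 fold change of 0.36.

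Hypotaurine, which FMO1 oxidizes to taurine in the mouse, is made from cysteine by CDO1 and CSAD. CDO1 was at 138 ± 77.4 CPM in SEFA-6179 livers, against 69.3 ± 30.3 CPM in MCT livers (log2 fold change 0.99 ± 0.39 SE, edgeR adjusted p = 0.356). GOT1, a transaminase that diverts the CDO1 product, was at 118 ± 42.8 CPM in SEFA-6179 livers, against 62.3 ± 15.4 CPM in MCT livers (edgeR adjusted p = 0.139). Of the 9 tested genes of this list 6 lay above 0 and 5 had an unadjusted p under 0.05, where 10.8% of all tested genes did. None passed after adjustment. CSAD, named after its values were seen, had a log2 fold change of -0.42 ± 0.17 (SE), so the 2 enzymes of hypotaurine synthesis had opposite signs.

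Choline and methylamine genes, linked to amine substrates of FMO enzymes, lay above 0 in 9 of 11 cases, with a median of 0.21. GNMT, which methylates glycine, was at 357 ± 158 CPM in SEFA-6179 livers, against 187 ± 87.5 CPM in MCT livers (edgeR adjusted p = 0.290), and the choline carrier SLC44A1 had a log2 fold change of -0.48 (edgeR adjusted p = 0.300). Among 7 tested genes of sulfoxide reduction, MSRB1, a selenoprotein that reduces methionine sulfoxide, had groups that did not overlap, at 209 ± 20.7 CPM in SEFA-6179 livers, against 144 ± 13.1 CPM in MCT livers. Its log2 fold change was 0.54 ± 0.13 (SE) with an edgeR adjusted p of 0.122, and 1.49% of all tested genes had groups that did not overlap in either direction. The mitochondrial thioredoxin TXN2 had a log2 fold change of 0.31.

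The gene that passed belongs to the 20 tested genes of drug oxidation and hydrolysis outside P450 and FMO. DHRS4, a short-chain dehydrogenase that reduces carbonyl groups, was at 1157 ± 382 CPM in SEFA-6179 livers, against 427 ± 113 CPM in MCT livers, with a fitted log2 difference of 1.44 ± 0.24 (SE; edgeR adjusted p = 0.0284). It no longer passed without SEFA-6179 replicate 1, 4 or 5 or without MCT replicate 1, 2, 3 or 4, each left out alone, where 0 genes of the lists passed. DHRS4 was known to pass when the list was drawn up, and related copies of it in mammalian genomes make its count uncertain. Of that list 13 genes lay above 0, with a median of 0.12. ADH4, an alcohol dehydrogenase named after its values were seen, had the largest log2 fold change of the list, 2.73 ± 0.69 (SE), at 323 ± 232 CPM in SEFA-6179 livers, against 48.5 ± 32.4 CPM in MCT livers, and did not pass (edgeR adjusted p = 0.168). DESeq2, run beside edgeR, called 4 genes of the 9 lists, DHRS4, ADH4, GOT1 and MSRB1, where it called 2.02% of all tested genes.

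Factors reported to act on an FMO gene in some mammal were mostly near 0, with 7 of 10 above it and a median of 0.13. None of the 10 passed by edgeR, where 0.219% of all tested genes did, and DESeq2 called none, where it called 2.02%. An unadjusted p under 0.05 was found for 1 of the 10, where 10.8% of all tested genes had one. Counts this near the shares over all genes say little about these factors. HNF4A, a liver factor tied to the rabbit FMO1 promoter, was named after its values were seen and had a log2 fold change of 0.32 ± 0.20 (SE), at 257 ± 71.2 CPM in SEFA-6179 livers, against 206 ± 27.8 CPM in MCT livers.

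**Figure D5:**
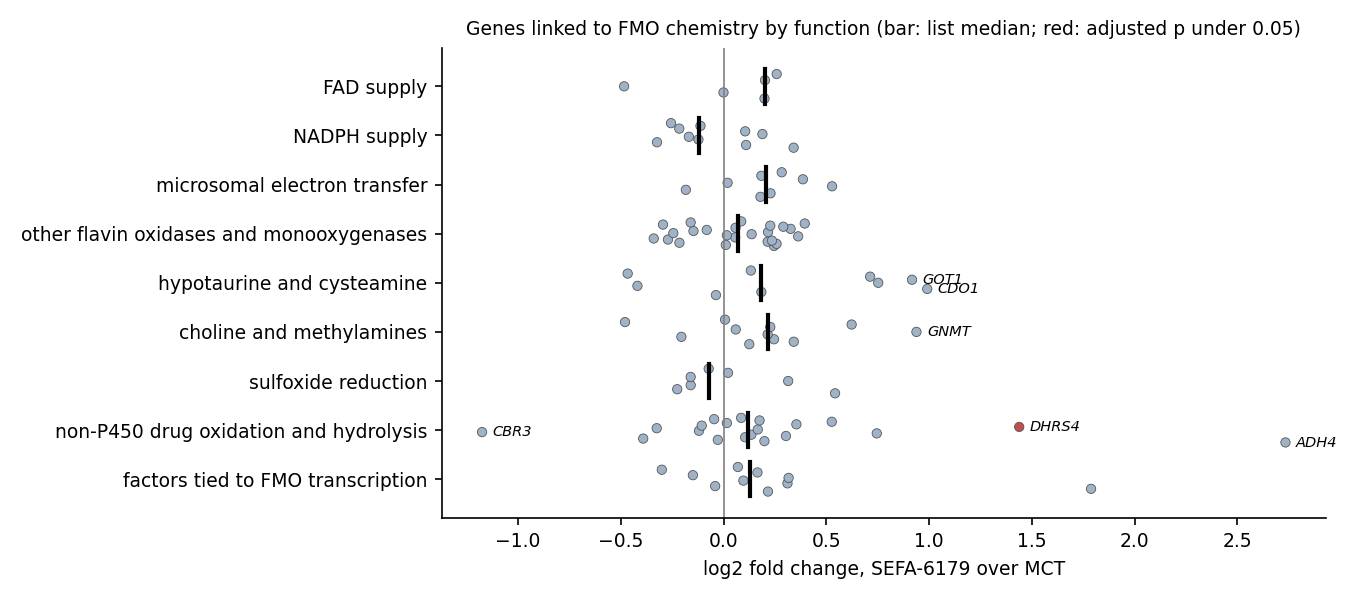
Log2 fold change of SEFA-6179 over MCT (x axis) of each tested gene in 9 lists tied to FMO chemistry, 1 row per list, with a black bar at the list median and DHRS4, the 1 gene past the threshold, in red. List medians lie between -0.12 and 0.21.

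Markers of 6 cell types were read from the same fit, and their part in the FMO differences was not tested. Hepatocyte markers lay above 0 in 8 of 12 tested cases, with a median of 0.17. TAT, a tyrosine transaminase, had a log2 fold change of 1.07 and AHSG, a plasma protein, one of -0.61. Cholangiocyte markers lay above 0 in 1 of 10 cases, with a median of -0.66 and sums of 185 to 266 CPM with SEFA-6179 and 204 to 506 CPM with MCT. CD24, with the smallest p of this list, had a log2 fold change of -1.31 ± 0.25 (SE, edgeR adjusted p = 0.0539). Every SEFA-6179 library lay below every MCT library for it, where 1.49% of all tested genes had groups that did not overlap in either direction. SOX9 had a log2 fold change of -1.60 ± 0.41 (SE; edgeR adjusted p = 0.148). MCT replicate 6, at 204 CPM, was the only MCT library whose cholangiocyte sum fell inside the SEFA-6179 range. Endothelial markers lay above 0 in all 12 tested cases, with sums of 651 to 1086 CPM with SEFA-6179 and 537 to 972 CPM with MCT, and EMCN and VWF had log2 fold changes of 0.67 and 0.55. Macrophage markers lay above 0 in 8 of 10 cases, with sums of 841 to 3534 CPM with SEFA-6179 and 1403 to 2790 CPM with MCT; C1QA had a log2 fold change of 0.86 and CD14 one of -0.53. Stellate cell markers lay above 0 in 2 of 13 cases, with COL1A2 at -0.69 and DES at -0.45, and sums of 681 to 1044 CPM with SEFA-6179 and 834 to 1244 CPM with MCT. Erythroid markers lay above 0 in 1 of 7 cases, HBB at 0.74 with AHSP at -0.43, and sums of 278 to 542 CPM with SEFA-6179 and 144 to 460 CPM with MCT. No marker of any of these 6 lists passed by edgeR, where 0.219% of all tested genes did, and the group sums overlapped for every list.

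Genes whose pattern was most like that of FMO1 were ranked by Pearson's r of log2 CPM over the 11 libraries, among 11848 other tested genes with a symbol. Since the groups differ in FMO1, this measure favours genes that differ between the groups. Among the 5 highest were CNIH3, an auxiliary protein of glutamate receptors (r = 0.94), HACL1, a lyase of peroxisomal alpha-oxidation (0.92), the ribosomal protein gene RPS29 (0.92) and FDX1, a ferredoxin of mitochondria (0.91). CNIH3 was low, at 1.06 ± 0.173 CPM in SEFA-6179 livers, against 0.368 ± 0.210 CPM in MCT livers. HACL1 was at 107 ± 22.7 CPM in SEFA-6179 livers, against 62.3 ± 11.6 CPM in MCT livers (edgeR adjusted p = 0.0905). FMO4 ranked 23rd with an r of 0.85 and FMO5 3077th with 0.26.

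After each group's mean was removed, so that only variation within groups counted, the order changed. The 5 highest were then MACIR (r = 0.94), ADGRG7 (0.92), CYB5R4 (0.90), CRACR2B (0.88) and COL5A2 (0.88), and none of these passed by edgeR. CYB5R4, a flavin-containing cytochrome b5 reductase from the electron transfer list, was at 5.63 ± 0.965 CPM in SEFA-6179 livers, against 5.56 ± 1.29 CPM in MCT livers. FMO5 then had an r of 0.40 with FMO1 and FMO4 one of 0.083, and FMO4 fell to rank 4813. Both pooled values mix opposite signs. FMO1 and FMO5 had an r of 0.96 in the 5 SEFA-6179 libraries and of -0.45 in the 6 MCT libraries. For FMO1 and FMO4 the values were -0.28 and 0.31. SEFA-6179 replicate 3 was the lowest of its group for both FMO1 and FMO5, and the SEFA-6179 correlations were not tested. All of these are descriptions over at most 11 libraries, which share the tissue and the counting.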

How the data were processed

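Liver RNA of 5 SEFA-6179 and 6 MCT animals was sequenced, each library taken as 1 animal. The authors deposited 1 table with raw read counts per gene and, per the file headers, FPKM values. Also deposited were a normalized signal (each count over its library's size factor) with group means, and the authors' own comparison as log2 fold change and p-value, raw and adjusted. DESeq2 1.20.0, featureCounts 1.5.0-p3, StringTie 1.3.3b and HISAT2 2.0.5 are named, with no role, in the submitters' processing notes. No source used here gives a genome build or strand setting.

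The FMO members, gene lists, rules and alternatives were chosen with earlier results of these data known. The table itself named 14022 genes, and a reference list added symbols for 779. The test was that of edgeR 4.0.16 under R 4.3.3 (filterByExpr with a minimum count of 10, TMM, quasi-likelihood with robust estimation, two-sided, all 11 libraries, no covariate), and 13671 genes were tested. A standard error is the log2 fold change over the square root of F. The fits were first tested on simulated counts. There edgeR recovered 53 of 98 genes with a log2 change of 1 and 87 of 95 with one of 2, with 4 false calls among 144. DESeq2 recovered 64 of 98 and 91 of 95, with 25 false calls among 180. Log2 CPM used a prior count of 2. Genes named are the FMO genes, tested neighbours with a symbol, per list the members past the threshold or otherwise the 2 with the smallest p, and the 5 genes most like FMO1 by either measure. Alternatives used DESeq2 1.42.0 and limma 3.58.1, and permutations Python 3.11.15 with scipy 1.17.1. Genes of the lists without a row under their symbol were not analysed here, and some genes of the family, the lists and the likeness ranking are not reported here.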

Additional observations from a re-analysis of the deposited data

How the results depend on the processing

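FMO1 and FMO4 kept their sign in all 21 alternatives, with log2 fold changes of 1.57 to 1.90 and 0.67 to 0.74, and the cause of lost calls was not tested. With the replicate block over replicates 1 to 5, FMO1 had a log2 fold change of 1.80 (adjusted p = 0.0509) and FMO4 one of 0.68 (0.134), and neither passed; the same libraries without the block gave 1.81 (0.0236) and 0.67 (0.0329). No label used here says whether equal replicate numbers pair the libraries. Same-numbered deviations correlated between -0.15 and 0.20. For replicate 3 the same-numbered r of 0.20 exceeded the highest other one, 0.12. For replicates 1, 2, 4 and 5 the same-numbered r lay below the highest other one. These few values cannot decide whether the libraries are paired. Without both MCT replicate 5 and SEFA-6179 replicate 4, FMO1 had 1.79 (0.0578) and FMO4 0.74 (0.0575). With each library left out the values ran from 1.57 to 1.86 for FMO1 and from 0.67 to 0.74 for FMO4. FMO5 never passed; leaving out each library gave -0.034 to 0.48, and the sign turned without SEFA-6179 replicate 5.

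The number of genes called was 30 with all libraries, 276 by DESeq2, 62 by limma with library weights, 8 with the replicate block, 14 with EIF1AY as covariate, and 1 without both MCT replicate 5 and SEFA-6179 replicate 4. Leaving out each library gave 0 to 53. Related-list genes called were 1 in all, 4 by DESeq2, 0 with the block, 0 without both libraries, 0 without DHRS4, and 0 to 1 with each library left out. No neighbourhood gene was called in any of 23 alternatives, windows of 500 kb and 2 Mb included. The main fit tested 13 such genes and called 0.219% of all tested genes, so a count of 0 says little. Without SEFA-6179 replicate 5 or without MCT replicate 4, 0 genes of the whole series were called. Among MCT pair correlations, r turned sign for FMO1 and FMO5 without the 2 farthest libraries, to 0.038. FMO2 did not pass the low-count filter, and no fold change is given for it here.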

Other observations

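EIF1AY, a Y-linked gene used as a covariate, was detected with 350 to 351 counts in 2 SEFA-6179 libraries and with 384 to 495 counts in 4 MCT libraries, and was at 0 in the rest. FMO1 was at 889 to 929 CPM in the SEFA-6179 libraries with EIF1AY and at 469 to 1222 CPM in the 3 without it. In MCT livers FMO1 was at 183 to 398 CPM in the libraries with EIF1AY and at 327 to 364 CPM in the 2 without it. With its level as a covariate the log2 fold change was 1.65 ± 0.28 (SE) for FMO1 and 0.67 ± 0.11 (SE) for FMO4, both with an edgeR adjusted p of 0.0491.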
